A study of Mus musculus with 23 samples.

Results

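The Spic knockout was read in red pulp macrophages of 7-day-old C57BL/6 mouse pups, in 5 of the 23 libraries of the series. The libraries were taken by their titles and genotype labels: 2 of RPM_d7_Spic_KO (genotype Spic_KO) and 3 of RPM_d7_Spic_WT (genotype Spic_WT). For each, 1000 spleen cells were sorted by flow cytometry, and polyadenylated RNA was amplified and sequenced. The labels give neither the knockout allele nor the sorting gate, and they do not say whether replicates are separate animals. The p-values therefore measure a spread between libraries that may be technical. In the main fit that spread was pooled over all 11 libraries of the table, including the groups RPM_TAM_CreERT2 and RPM_TAM_WT. The titles of those groups do not give day 7, so part of the spread comes from libraries not labelled as of that age. They held 0.693 to 4.24 M reads. Levels are normalised read counts. Of the 25700 genes in the table, 16650 had a level of at least 1 in at least 2 of its 11 libraries and were tested.

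SPIC is a transcription factor of the ETS family, in the same branch as PU.1, and these factors bind DNA at a GGAA core. In the spleen it is known as a factor that red pulp macrophages need to form, and heme released from engulfed red cells induces its gene by removing the repressor BACH1. Red pulp macrophages take up aged red cells, break down their heme and return the iron to the blood. They are commonly marked by VCAM1, the integrin alpha D (Itgad) and heme oxygenase 1 (Hmox1).

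The targeted gene was lower but not absent. Spic (ENSMUSG00000004359, chromosome 10, minus strand) stood at 3110, 1993 and 2203 in the Spic_WT libraries and at 931 and 1236 in the Spic_KO libraries. The groups do not overlap, and the log2 change was -1.16 ± 0.30 (SE; limma adjusted p = 0.0319). Spic no longer passed without RPM_d7_Spic_WT replicate 1 (adjusted p = 0.148), RPM_d7_Spic_WT replicate 3 (0.0726), RPM_d7_Spic_KO replicate 1 (0.115) or RPM_d7_Spic_KO replicate 2 (0.074). A value summed over the gene cannot show whether the remaining reads come from the part that was removed. Around Spic, 8 of the 224 genes tested within 10 Mb were called, and 33 of 774 (4.26%) on chromosome 10. Over all tested genes 658 of 16650 (3.95%) were called.

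Both knockout libraries are described singly, because they stand apart from the controls and from each other. They held 2.85 and 3.07 M reads, against 4.24 to 6.29 M in Spic_WT. Over the tested genes, pairs of Spic_WT libraries had a Pearson r of 0.948 to 0.962. Spic_KO replicate 1 reached 0.873 to 0.881 with the controls and replicate 2 only 0.764 to 0.773, and the pair of knockouts 0.786. These are descriptions over genes, which share library and depth. Olfactory receptor genes took 0.0311% of replicate 1 and 0.224% of replicate 2, against 0.00335 to 0.00503% of the controls. The predicted gene Gm10800 stood at 5413 and 22860 in Spic_KO replicates 1 and 2 and at 103, 514 and 246 in the controls. Reads of Y-linked genes also set replicate 2 apart: Uty stood at 182, Ddx3y at 141 and Eif2s3y at 68.3 there. In the controls all 3 genes had no read, and in Spic_KO replicate 1 the level was 0.501 for Ddx3y, the value of 1 read, and 0 for the others. The labels give no sex. Predicted genes as a class took 3.58% and 5.87%, against 3.40 to 3.95%. Mitochondrially encoded transcripts took 1.89% and 1.24%, against 3.77 to 4.48%, and 7 of their 13 genes were called lower. Of 7855 genes with a control mean of at least 20, Spic_KO replicate 1 had no read for 58 and replicate 2 for 180, with 22 in common. No control library lacked more than 2 such genes, taking the mean over the others. The part of these differences in the results below was not tested, except by leaving out each library.

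**Figure D1:**
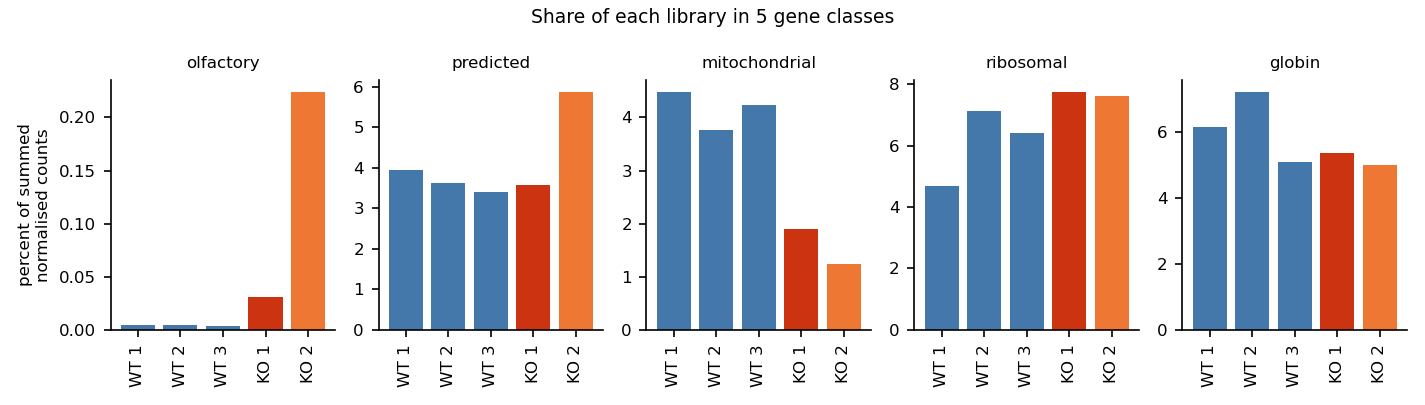
Bars give the percent of each library's summed normalised counts in 5 gene classes, for 3 Spic_WT (WT) and 2 Spic_KO (KO) libraries. Olfactory receptor genes stand highest in KO 2 (0.224%) and mitochondrial transcripts lowest there (1.24%).

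The sorted cells carried macrophage transcripts in all 5 libraries. The 16 macrophage markers were all in the table, and their levels summed to 29528 to 39986 in Spic_WT and to 23348 and 24701 in Spic_KO. Csf1r, the receptor for the macrophage growth factor CSF1, stood at 3702, 2879 and 3559 in the controls and at 2715 and 2802 in the knockouts (limma adjusted p = 0.504). Among the macrophage markers 5 were called lower and 0 higher, including the complement gene C1qa, with 3457, 2262 and 2696 against 1032 and 1222 (log2 change -1.30, limma adjusted p = 0.00324). In libraries from sorted bulk cells, fewer cells of a type and less RNA per cell cannot be told apart.

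Between the groups 658 genes were called (3.95% of those tested; limma adjusted p under 0.05). Of these, 413 were lower in Spic_KO (2.48%) and 245 higher (1.47%). Among the 9080 tested genes with a mean of at least 20 in either group, 388 were lower and 233 higher. Counts of called list members below stand beside these shares. The direction split depended on the method. On recovered reads, edgeR with TMM factors called 394 lower and 603 higher, and DESeq2 788 lower and 913 higher. The library left out also mattered. Without RPM_d7_Spic_KO replicate 1, 1017 were lower and 955 higher, and without replicate 2, 207 and 90. Without RPM_d7_Spic_WT replicate 1, 2 or 3, the lower calls were 156, 204 and 183 and the higher calls 105, 151 and 133. In the main fit and with each of the 5 libraries left out in turn, 112 genes were called lower and 57 higher. Changes also moved with transcript length. The median log2 change was -0.40 in the shortest 2125 transcripts, those up to 2289 bases, and 0.20 in the longest 2123, from 4974 bases, and both knockout libraries showed it (-0.37 and 0.17 in replicate 1, -0.31 and 0.28 in replicate 2). With length corrected, 393 genes were called lower and 261 higher. Each call named below held with any 1 of the 5 libraries left out, unless libraries are named beside it.

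**Figure D2:**
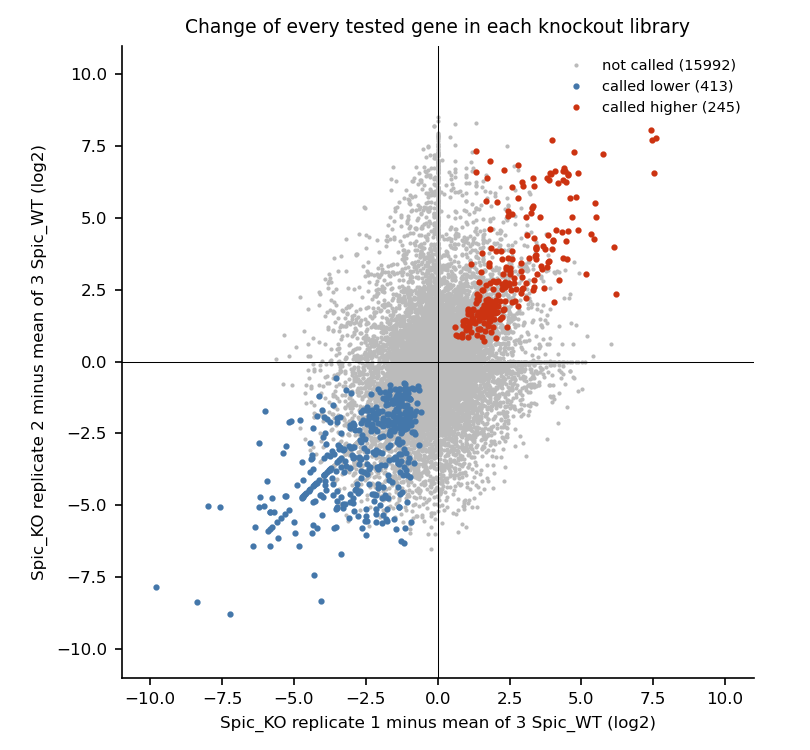
Each point is a tested gene, with its log2 change against the mean of the 3 Spic_WT libraries in Spic_KO replicate 1 (x axis) and replicate 2 (y axis). The 413 genes called lower and the 245 called higher lie where both replicates moved the same way, and the vertical spread at 0 shows genes that stood apart in replicate 2 alone.

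Several genes were close to lost in both knockout libraries. Slpi, which encodes a secreted inhibitor of leukocyte proteases, stood at 276, 252 and 527 in Spic_WT and had no read in either knockout, which is at least 230.1-fold lower (limma adjusted p = 2.9e-11). Itgad, the alpha chain of a beta 2 integrin typical of red pulp macrophages, went from 2089, 1468 and 1857 to 1.00 and 6.73 (log2 change -8.83 ± 0.64, limma adjusted p = 4.3e-08). Ccr3, a chemokine receptor gene, went from 1691, 1123 and 1260 to 8.01 and 2.07 (-7.99 ± 0.38, 3.7e-11). For these genes every knockout library lay more than 100 times below every control. Fcna, which encodes the lectin ficolin A of the complement system, went from 5222, 3325 and 3224 to 50.6 and 113 (-5.64 ± 0.40, limma adjusted p = 3e-08).

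Other transcripts with no read in either knockout library were Hs3st2, a sulfotransferase of heparan sulfate (106, 73.9 and 76.0 in Spic_WT, at least 55.9-fold lower), and Rtl8c, a gene derived from a retrotransposon (81.1, 46.2 and 52.8, at least 39.3-fold lower). Ppm1n, a protein phosphatase gene, was at least 36.9-fold lower and Dgki, a diacylglycerol kinase gene, at least 35.2-fold. Gstk1, a glutathione transferase gene, was at least 29.4-fold lower. Its neighbour in function, the microsomal glutathione transferase Mgst1, had 100, 65.5 and 80.9 in the controls and 1 read in the knockouts (ratio 331, 95% counting interval 59.2 to 13080). Limma adjusted p ran from 4.4e-06 (Hs3st2) to 0.00379 (Rtl8c) among these 6. The sialyltransferase gene St6galnac2 has a pair of identifiers that overlap on the minus strand of chromosome 11, so reads may be split between them. ENSMUSG00000057286 went from 178, 143 and 121 to 1.001 and 4.66 (log2 change -5.45, limma adjusted p = 0.000194), and was also called lower in vavCre (-2.87), a genotype described at the end. ENSMUSG00000110170 of St6galnac2 stood at 64.5, 38.9 and 23.0 in Spic_WT and at 0 in Spic_KO, and its call (limma adjusted p = 0.0074) was lost without RPM_d7_Spic_WT replicate 1 (0.0593).

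Genes of the cell surface and matrix were also among the 15 falls that ranked highest by the smaller of the changes in the single knockout libraries. Col14a1, a fibril-associated collagen, stood at 77.1, 85.1 and 94.8 in the controls and had 1 read in the knockouts. Pcolce2, which aids procollagen processing, went from 75.8, 29.1 and 80.6 to 0 and 0.517, the value of 1 read. Nav1, a cytoskeletal gene first described in neurons, went from 190, 143 and 132 to 2.002 and 3.104 (log2 change -5.46, limma adjusted p = 3.1e-07). Dcbld1 also fell (77.8, 61.3 and 71.5 against 0.501 and 0). Gja1, the gap junction protein connexin 43, went from 79.9, 57.5 and 38.8 to 0 and 0.517 (limma adjusted p = 0.0132), a call lost without RPM_d7_Spic_KO replicate 2 (0.0532), RPM_d7_Spic_WT replicate 1 (0.0762) or RPM_d7_Spic_WT replicate 2 (0.0517).

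The 15 rises that ranked highest by the same measure were of genes at low levels in the controls, at most 28.03 in any Spic_WT library. Rab7b, a GTPase of late endosomes, went from 0, 0 and 1.29 to 252 and 290 (log2 change 7.69 ± 0.89, limma adjusted p = 2.9e-05). Tox2, a nuclear factor with an HMG box, had no read in Spic_WT and 177 and 206 in Spic_KO, at least 207-fold higher (limma adjusted p = 5e-05). Gbp2b, a guanylate-binding protein, had 1 read in the controls and levels of 187 and 289 in the knockouts (ratio 2350, 95% counting interval 421 to 92920, limma adjusted p = 0.000254). Mmp9, a matrix protease also listed as a neutrophil marker, had no read in Spic_WT and 186 and 93.7 in Spic_KO, at least 151-fold higher (limma adjusted p = 0.000426). The neutrophil alarmin gene S100a8 stood at 7.84, 19.97 and 9.06 in the controls and at 3.50 and 62.1 in the knockouts. Mmp9 was the 1 of 14 tested neutrophil markers that was called.

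Among surface receptors, Clec10a, a lectin that binds galactose residues, went from 3.79, 8.06 and 3.24 to 167 and 136 (log2 change 4.73, limma adjusted p = 0.00603). Ceacam1, a cell adhesion receptor, went from 3.54, 2.10 and 4.53 to 98.6 and 97.8 (4.54, 0.000632). Btla, an inhibitory receptor of lymphocytes and some myeloid cells, went from 2.02, 3.85 and 0 to 97.1 and 51.7 (4.88, 0.000983). Fcer2a, a receptor for IgE, had no read in the controls and 24.5 and 32.1 in the knockouts, at least 30.5-fold higher (limma adjusted p = 0.000946). The motor protein gene Myo5a rose from 3.79, 3.85 and 5.18 to 115 and 398, and Cyp4f18, a fatty acid hydroxylase, from 0.758, 19.6 and 2.91 to 231 and 236. Plxdc2 (2.53, 0 and 1.94 against 64.1 and 205; adjusted p = 0.00324, or 0.055 with a pseudocount of 0.1) and Mpdz (0, 0 and 0.324 against 26.0 and 55.9) were also called. For Clec10a and Ceacam1, close paralogs may share reads.

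Weaker support stood behind 3 of the 15 rises. Ccr1 was at 5.81, 28.0 and 0 in Spic_WT and at 266 and 188 in Spic_KO (limma adjusted p = 0.0394), and its call was lost without RPM_d7_Spic_KO replicate 1 (0.0883), RPM_d7_Spic_KO replicate 2 (0.143), RPM_d7_Spic_WT replicate 1 (0.103) or RPM_d7_Spic_WT replicate 3 (0.169). DESeq2 did not call it either (0.148). Arhgap20 (0, 1.05 and 0 against 35.0 and 66.2; 0.0261) was lost without RPM_d7_Spic_KO replicate 2 (0.16) or any of RPM_d7_Spic_WT replicates 1, 2 and 3 (0.107, 0.0562 and 0.0956). Ocstamp, a gene of macrophage fusion (0, 3.85 and 0 against 38.6 and 156; 0.00826), was lost without RPM_d7_Spic_KO replicate 2 (0.0845), RPM_d7_Spic_WT replicate 1 (0.061) or RPM_d7_Spic_WT replicate 3 (0.0524).

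**Figure D3:**
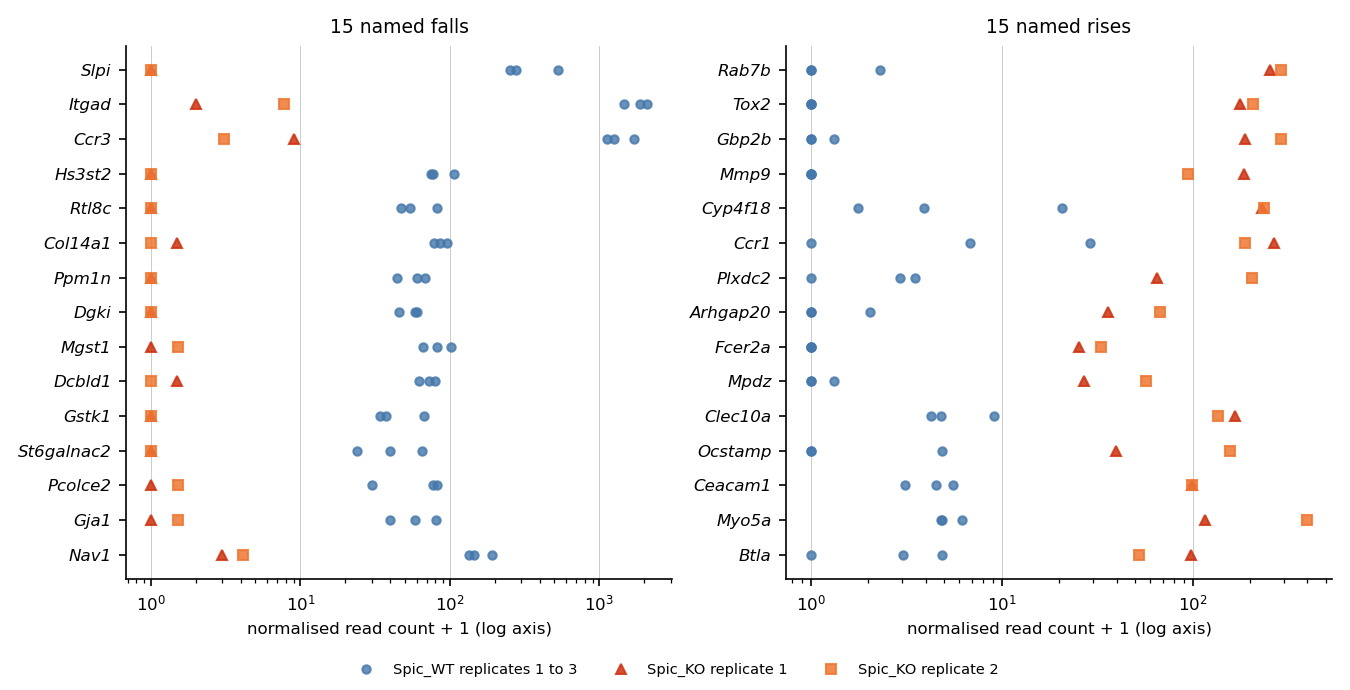
Normalised read count + 1 (log axis) in every library for the 15 falls and 15 rises named by the rule, with circles for 3 Spic_WT libraries, a triangle for Spic_KO replicate 1 and a square for replicate 2. In each row both knockout libraries lie on the same side of all controls.

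Since SPIC belongs to the ETS family, the promoters of called genes were read for its core motif. The 250 bases before the RefSeq start of 2 genes that fell (Slpi and Fcna) and of 1 that rose (Pf4, below) are printed 5′ to 3′ on the gene's strand (RefSeq, GRCm38.p6), with GGAA, or TTCC where the motif lies on the other strand, in capitals. They are Slpi at chr2:164356508-164356757 (minus strand), Fcna at chr2:25627975-25628224 (minus strand) and Pf4 at chr5:90772185-90772434 (plus strand).
Slpi: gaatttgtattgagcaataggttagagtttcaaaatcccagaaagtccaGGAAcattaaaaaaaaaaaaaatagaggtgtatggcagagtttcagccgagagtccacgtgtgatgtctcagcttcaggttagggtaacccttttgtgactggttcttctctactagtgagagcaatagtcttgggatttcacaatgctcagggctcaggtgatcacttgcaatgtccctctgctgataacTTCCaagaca
Fcna: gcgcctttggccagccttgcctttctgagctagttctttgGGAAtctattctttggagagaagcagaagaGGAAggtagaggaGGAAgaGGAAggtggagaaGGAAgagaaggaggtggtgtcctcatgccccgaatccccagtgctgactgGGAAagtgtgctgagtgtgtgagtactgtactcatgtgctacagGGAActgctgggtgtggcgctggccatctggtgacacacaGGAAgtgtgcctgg
Pf4: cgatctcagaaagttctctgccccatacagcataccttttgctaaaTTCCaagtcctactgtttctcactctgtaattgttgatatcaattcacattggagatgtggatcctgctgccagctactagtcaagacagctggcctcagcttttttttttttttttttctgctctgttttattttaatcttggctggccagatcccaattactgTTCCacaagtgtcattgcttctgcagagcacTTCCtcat
GGAA occurs 2 times in the Slpi window, 8 times in the Fcna window and 3 times in the Pf4 window, counting both strands. The longer form GAGGAAG, which contains GGAA, occurs 3 times for Fcna and 1 time for Pf4. Over all genes called lower with a promoter entry (298 of 411 symbols, 383 promoters), 94.0% of windows held GGAA on either strand. The share was 91.1% for genes called higher (169 of 245 symbols, 225 promoters) and 93.3% for the genes tested (14800 promoters), with 93.4% over the whole promoter table. GAGGAAG was in 11.5% of windows of genes called lower, 17.3% of those called higher, 11.1% of the genes tested and 10.6% of the table. A match is a description of these letters and not a binding site.

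Of 24 genes written down for red pulp macrophage identity, 9 were called lower and 0 higher, with a median log2 change of -0.97 against 0 for all tested genes. The list median was -0.99 in Spic_KO replicate 1 and -0.67 in replicate 2. With 1 library left out, 7 to 9 members were called, not always the same ones. Besides Itgad, Ccr3, Fcna and Spic, the 9 called in the main fit were Pparg, Id2, Vcam1, Hmox1 and Timd4. Pparg, the fatty acid sensing nuclear receptor of the series title, stood at 330, 211 and 221 in Spic_WT and at 26.0 and 21.7 in Spic_KO (log2 change -3.33 ± 0.39, limma adjusted p = 2.9e-05). Vcam1, an adhesion receptor for erythroblasts, went from 8022, 7268 and 7589 to 2933 and 2498 (-1.49 ± 0.18, 3.7e-05). Id2, an inhibitor of basic helix-loop-helix factors, went from 2295, 1723 and 1953 to 637 and 377 (-2.01 ± 0.29, 0.000383). In each of these 3 genes the knockout libraries lay well below the lowest control.

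Timd4, a receptor for phosphatidylserine on dying cells, stood at 434, 367 and 381 against 96.6 and 188 (-1.54, limma adjusted p = 0.0264), a call lost without RPM_d7_Spic_KO replicate 1 (0.13) or without RPM_d7_Spic_WT replicate 1, 2 or 3 (0.112, 0.0695 and 0.0804). Other identity genes did not pass. Cd163, the scavenger receptor for haemoglobin, was at 355, 339 and 302 in the controls and 690 and 390 in the knockouts (0.65, limma adjusted p = 0.536). Siglec1, a sialic acid binding receptor, was at 172, 129 and 148 against 204 and 199 (0.43, 0.703). Mrc1, the mannose receptor, was at 2595, 2412 and 2675 against 1879 and 1683 (-0.52, 0.188). Adgre1, which encodes F4/80, was at 1772, 1407 and 1818 against 1021 and 540 (-1.16, 0.051).

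Heme handling genes were lower where they were called. Of 15 tested genes of heme uptake and breakdown, 4 were called lower and 0 higher, with a median log2 change of -0.62. The median was -0.40 in Spic_KO replicate 1 and -1.02 in replicate 2, and -0.07 without RPM_d7_Spic_WT replicate 1. Of the enzymes that open the heme ring and reduce the product, Hmox1, Blvrb and Blvra were called lower. Hmox2, the other heme oxygenase of the list, was not called. Hmox1 had 8806, 3227 and 3374 in Spic_WT, where replicate 1 stood far above the others, and 1363 and 1287 in Spic_KO (-1.79 ± 0.30, limma adjusted p = 0.00126; 0.315 with library weights). Blvrb, a biliverdin reductase, went from 2064, 2279 and 2246 to 524 and 638 (-1.92 ± 0.37, 0.00455), and Blvra, the other biliverdin reductase, from 755, 561 and 633 to 227 and 158 (-1.76 ± 0.31, 0.00188). Lrp1, a receptor for heme bound to hemopexin, was called (355, 339 and 382 against 137 and 176; 0.0212) but lost without RPM_d7_Spic_KO replicate 1 (0.0585) or RPM_d7_Spic_WT replicate 1, 2 or 3 (0.0823, 0.0619 and 0.104). Bach1, the heme-sensing repressor, was at 35.1, 37.1 and 49.5 against 66.1 and 139 (1.24, limma adjusted p = 0.204).

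Of 19 tested iron genes, 2 were called lower and 0 higher, with a median log2 change of -0.13, and the same count stood with each library left out. Over all tested genes 2.48% were called lower. Ftl1, the ferritin light chain, went from 35790, 22410 and 24460 to 10950 and 14050 (-1.12 ± 0.18, limma adjusted p = 0.000759). Hfe, which tunes iron sensing, went from 767, 636 and 744 to 263 and 229 (-1.54 ± 0.27, 0.00188). The ferritin heavy chain Fth1 was at 7499, 6083 and 6089 against 4885 and 3678 (-0.62, limma adjusted p = 0.259). The iron exporter ferroportin, Slc40a1, was at 5620, 4975 and 5217 against 4140 and 4443 (-0.30, 0.391). For Fth1 and Slc40a1 the groups did not overlap, as in 19.4% of tested genes toward lower values.

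Integrin genes other than Itgad included its partner chain. Itgb2, the shared beta 2 chain, went from 565, 406 and 520 to 118 and 149 (-1.89 ± 0.30, limma adjusted p = 0.000819). Itgal, the alpha L chain of LFA-1, was higher in the knockouts (19.2, 38.9 and 59.6 against 126 and 366; 0.00401), a call lost without RPM_d7_Spic_KO replicate 2 (0.109). Of 21 tested integrin and adhesion rows 3 were called lower and 1 higher, against 2.48% and 1.47% of all tested genes.

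MHC class II genes were the list with the largest positive median, 1.86, with 4 of 10 tested genes called higher and 0 lower. The median was 2.09 in Spic_KO replicate 1 and 1.67 in replicate 2. H2-Aa, an alpha chain, stood at 126, 132 and 365 in Spic_WT and at 2601 and 2012 in Spic_KO (log2 change 3.64 ± 0.38, limma adjusted p = 8.3e-06). H2-Ab1, the matching beta chain, went from 98.1, 102 and 306 to 1929 and 2203 (3.82 ± 0.39, 7.1e-06), and H2-Eb1 from 85.9, 36.8 and 152 to 841 and 950 (3.49 ± 0.43, 5.6e-05). Spic_WT replicate 3 was the highest control for these 3 genes. With library weights, which set Spic_WT replicate 3 highest and both knockouts low, none of the 3 was called (0.119, 0.123 and 0.124). H2-DMb1, a chain of the peptide editor DM, went from 143, 110 and 134 to 420 and 484 (1.81, limma adjusted p = 0.0074), a call lost without RPM_d7_Spic_KO replicate 2 (0.0687). The invariant chain Cd74 was at 518, 331 and 915 against 1319 and 1502 (1.38, limma adjusted p = 0.0532), and the class II transactivator Ciita at 5.06, 3.50 and 3.88 against 44.6 and 17.6 (2.51, 0.144).

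Class II genes are also expressed by B cells and dendritic cells, so markers of those cells were read beside them. The 14 B cell markers summed to 612 to 927 in Spic_WT and to 630 and 762 in Spic_KO. The B cell factor Ebf1 was called higher (limma adjusted p = 0.0413), a call lost without RPM_d7_Spic_KO replicate 1 (0.114) or 2 (0.0672) or RPM_d7_Spic_WT replicate 1 (0.151) or 3 (0.135), and Cd79a was at 14.9, 66.9 and 19.7 against 10.01 and 0. The 14 dendritic cell markers summed to 507 to 666 in the controls and to 526 and 1049 in the knockouts, with 0 called, and Cd209a had no read in any of the 5 libraries. The part of these cells in the class II values was not tested.

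Receptors for chemoattractants moved both ways. Of 23 tested, 6 were called higher and 2 lower, with a median log2 change of 0.08. Without RPM_d7_Spic_KO replicate 2, 3 were called higher and 2 lower. Without RPM_d7_Spic_KO replicate 1, 5 were higher and 4 lower. Cx3cr1, the fractalkine receptor, went from 49.3, 70.1 and 57.3 to 832 and 583 (3.56 ± 0.60, limma adjusted p = 0.00133). C3ar1, the receptor for complement fragment C3a, went from 37.4, 41.3 and 36.9 to 298 and 303 (2.93 ± 0.54, 0.00314). C5ar1, the receptor for fragment C5a, went from 6.82, 9.46 and 3.88 to 92.6 and 118 (3.84 ± 0.75, 0.00455). The falls were Ccr3, above, and Fpr1, a formyl peptide receptor (357, 126 and 269 against 78.1 and 61.1; limma adjusted p = 0.0319). The Fpr1 call was lost without RPM_d7_Spic_KO replicate 2 (0.173), RPM_d7_Spic_WT replicate 1 (0.179) or RPM_d7_Spic_WT replicate 3 (0.124).

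Among 22 tested chemokines 4 were called higher and 0 lower, with a median of 1.03. The median was 1.23 in Spic_KO replicate 1 and 0.58 in replicate 2. Pf4, a platelet chemokine that some macrophages also make, went from 50.3, 105 and 70.5 to 1050 and 1534 (4.12 ± 0.48, limma adjusted p = 3.2e-05). Ccl24, an eotaxin, went from 107, 134 and 170 to 852 and 892 (2.69 ± 0.43, 0.000781), and Ccl3 from 14.4, 8.41 and 11.3 to 190 and 183 (3.95 ± 0.77, 0.00471). Cxcl16 (19.97, 15.1 and 20.7 against 91.6 and 125; limma adjusted p = 0.0269) was lost without RPM_d7_Spic_KO replicate 2 (0.159) or RPM_d7_Spic_WT replicate 1, 2 or 3 (0.0728, 0.0859 and 0.0627). Megakaryocyte and platelet markers, which include Pf4, summed to 178 to 230 in Spic_WT and to 1311 and 2110 in Spic_KO. Their other call, Clec1b (145, 80.6 and 78.6 against 251 and 440; limma adjusted p = 0.0271), was lost without RPM_d7_Spic_KO replicate 2 (0.25) or RPM_d7_Spic_WT replicates 2 or 3 (0.104 and 0.115). The median of these 13 tested markers was -0.14, and the part of platelet RNA in the Pf4 value was not tested.

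**Figure D4:**
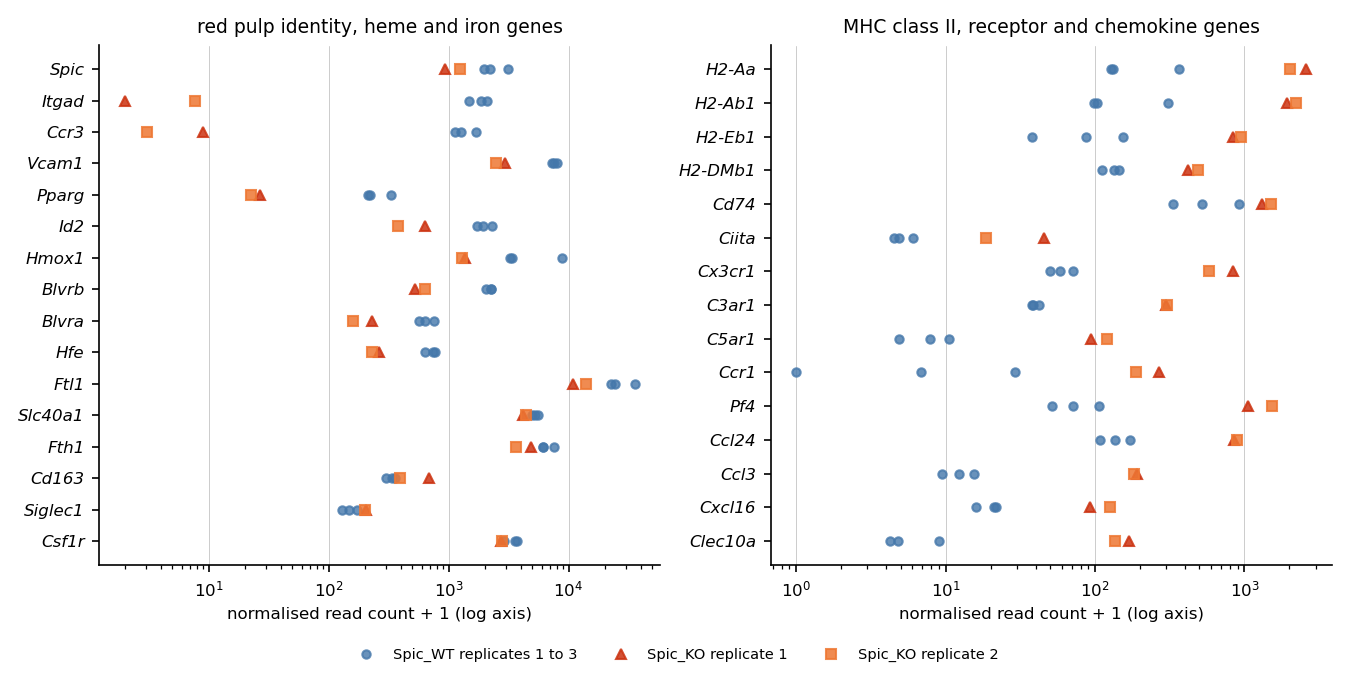
Normalised read count + 1 (log axis) in every library, for identity, heme and iron genes (left) and MHC class II, receptor and chemokine genes (right), with circles for 3 Spic_WT libraries, a triangle for Spic_KO replicate 1 and a square for replicate 2. Itgad and Ccr3 stand lowest of the left panel in the knockouts, while Cd163 and Siglec1 do not fall there, and in the right panel both knockouts lie above all 3 controls for every gene shown.

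Transcription factors of macrophages were called in both directions, 5 lower and 2 higher of 35 tested. The falls included Pparg and Id2, above. Cebpb, a factor of inflammatory and monocyte gene programmes, rose from 15.9, 25.2 and 21.7 to 181 and 144 (2.91 ± 0.49, limma adjusted p = 0.0013). Spi1, which encodes PU.1, was at 331, 230 and 286 against 189 and 325 (-0.17, limma adjusted p = 0.911), and Irf8 at 375, 338 and 423 against 285 and 292 (-0.39, 0.477). Of 21 ETS factors and partners of SPIC, 0 were called higher and 1 lower, against 1.47% and 2.48% of all tested genes. The gene called lower was Gabpa (90.5, 117 and 115 against 18.0 and 9.83; 0.00903), lost without RPM_d7_Spic_KO replicate 2 (0.0759) or RPM_d7_Spic_WT replicate 3 (0.0512).

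Lipid genes followed no single direction. Of 19 tested PPAR target genes, 3 were called higher and 1 lower, with a median log2 change of -0.25. Cd36, the fatty acid receptor, went from 293, 205 and 296 to 1064 and 1801 (2.40, limma adjusted p = 0.00182), Lpl, lipoprotein lipase, from 937, 888 and 958 to 2085 and 2918 (1.41, 0.00324), and Plin2, a lipid droplet coat protein, from 531, 427 and 414 to 948 and 1440 (1.36, 0.0255). Without RPM_d7_Spic_KO replicate 2 none of these 3 was called (0.0506, 0.0764 and 0.248). Plin2 was also lost without RPM_d7_Spic_WT replicate 2 (0.0845) or 3 (0.0973). The gene called lower was Acadm, an enzyme of fatty acid oxidation (-1.50, 0.0229), which was lost without RPM_d7_Spic_KO replicate 2 (0.0764) or RPM_d7_Spic_WT replicate 1, 2 or 3 (0.107, 0.0602 and 0.113). In the lysosome list 4 of 28 were called higher and 2 lower, but 2 higher and 0 lower without RPM_d7_Spic_KO replicate 2 or RPM_d7_Spic_WT replicate 1 or 3, and 2 each without RPM_d7_Spic_WT replicate 2. Psap, which encodes the precursor of the saposins, went from 1436, 1407 and 1252 to 4134 and 5095 (1.75 ± 0.19, limma adjusted p = 1.5e-05).

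Interferon-stimulated genes were called lower in 7 of 25 cases and higher in 0, with a median log2 change of -1.2 (-1.16 in Spic_KO replicate 1, -1.25 in replicate 2). The count of lower calls was 10 without RPM_d7_Spic_KO replicate 1 and 3 without replicate 2. It was 4, 6 and 2 without RPM_d7_Spic_WT replicates 1, 2 and 3. Ifit3, an antiviral effector, went from 182, 124 and 172 to 14.5 and 0.517 (-5.03 ± 0.69, limma adjusted p = 0.000194). Ifi44 stood at 16.4, 13.7 and 13.9 in the controls and had 1 read in the knockouts (limma adjusted p = 0.00718; 0.0684 with a pseudocount of 5). In the antioxidant list 4 of 21 were lower and 0 higher, and the count of lower calls was 1 with transcript length corrected. It was 0 without RPM_d7_Spic_WT replicate 1, 2 without replicate 2 or 3, and 1 without RPM_d7_Spic_KO replicate 2. Cholesterol synthesis genes had a median of -1.25, with 1 of 17 called lower. Of 34 cell cycle genes 2 were called lower (median -0.84). For both lists the share over all tested genes was 2.48% lower. For glycolysis and oxidative phosphorylation 0 genes were called in either direction by limma.

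Markers of other cells were read for the gate. Erythroid markers had 3 of 21 called lower and 1 higher (median -0.74), with 0 lower without RPM_d7_Spic_KO replicate 2 or RPM_d7_Spic_WT replicate 1 or 2, and their levels summed to 79347 to 110305 in Spic_WT and to 78557 and 81286 in Spic_KO. Monocyte markers had 2 of 16 called higher (Cx3cr1 and Itgal), with sums of 273 to 372 and of 1204 and 1420. The median log2 change of the monocyte markers was 0.35. Both knockouts lay above all controls for 5 of the 16 and below all controls for 2. Over all tested genes these shares were 14.8% and 19.4%. Of the markers not called, Ly6c2 (0.253, 23.1 and 0.971 against 0.501 and 0) and Ccr2 (1.77, 0 and 0.647 against 0.501 and 1.03) stood near 0 in both knockout libraries. The part of monocytes in these values was not tested. T and NK cell, eosinophil, basophil and mast cell, and endothelial and stromal markers had 0 calls by limma. Of the housekeeping list, B2m, which pairs with MHC class I chains, fell from 9049, 7498 and 10980 to 3177 and 2104 (-1.81, limma adjusted p = 0.00046). The cytoskeletal gene Actb rose from 13190, 10510 and 14060 to 24690 and 26600 (1.04, 0.00213).

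Red pulp macrophages of C57BL/6 pups at day 7 were also sequenced with the genotype label vavCre (3 RPM_d7_vavCre against 3 RPM_d7_WT). The labels name a Cre, in general use expressed in blood-forming cells, and no target allele, while the design text of the series speaks of cells lacking Pparg. Those libraries share none with the Spic comparison and were normalised in another table, in which 835 of 15130 tested genes were called (5.52%), 2.98% higher and 2.54% lower. Of 623 Spic_KO calls tested in both, 128 were called in the same direction in vavCre (20.5% of the Spic_KO calls and 15.6% of the 823 vavCre calls), 83 of them lower and 45 higher. In the opposite direction 28 were called (4.49%). The share in the same direction was 9.08% without RPM_d7_Spic_KO replicate 1 and 27.7% without replicate 2. Without RPM_d7_Spic_WT replicate 1, 2 or 3 it was 29.2%, 26.2% and 27.7%. Of the 15 falls ranked by the smaller single-library change, 14 were tested in vavCre and 9 were called lower there. Of the 15 rises ranked in that way, 3 were called higher (Rab7b, Tox2 and Myo5a).

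Shared falls included Itgad (8529, 10180 and 8060 in RPM_d7_WT against 158, 184 and 42.8 in RPM_d7_vavCre; log2 change -6.35, limma adjusted p = 0.00158) and Slpi (1058, 1235 and 1289 against 90.2, 62.7 and 59.5; -4.08, 0.00369). Hs3st2 changed by -4.50 there and Id2 by -3.30. The log2 change of Ccr3 was -1.21 in vavCre and -7.99 in Spic_KO. Shared rises included Pf4 (4.396 in vavCre), Cx3cr1 (3.23), C3ar1 (3.55) and C5ar1 (5.05). Genes called in opposite directions included Fcna, which went from 36230, 31820 and 42950 to 54570, 47400 and 54340 in vavCre (0.50, limma adjusted p = 0.0414). Cd36 changed by -1.96 in vavCre and by 2.40 in Spic_KO, and Pparg by 0.74 (1691, 1550 and 2124 against 4002, 2496 and 2613) and -3.33. As for Spic, a value summed over the gene cannot show which part of Pparg the vavCre reads come from. The class II genes H2-Aa and H2-Ab1 were not called in vavCre (-1.27 and -0.92, limma adjusted p = 0.249 and 0.434). Whether the effects of both genotypes differ was not tested, since the tables were normalised separately.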

How the data were processed

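Libraries were made from 1000 sorted cells with oligo-dT priming, PCR and tagmentation, per the labels' protocols. Per the submitters' processing notes the tools were STAR and edgeR and the build GRCm38; versions and roles are not given there. The authors deposited a signal of read counts normalised per library. That unit comes from the values: in each Spic library, division by a single factor left whole numbers of reads (tolerance 0.1 read, up to 500 reads) for 96.6 to 100% of values. Recovered reads, 2.85 to 6.29 M per Spic library, set the precision of low levels. No column was left unused. No source says that reads were assigned by strand, so antisense and overlapping genes cannot be told apart. GENCODE vM21 (GRCm38) gave coordinates, for 25587 of the identifiers, and transcript lengths.

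Values were tested as log2(value + 1), which understates changes of low genes, with limma 3.58.1 in R 4.3.3 (trend and robust). The fit gave 1 mean to each of 4 groups in 11 libraries: RPM_d7_Spic_KO, RPM_d7_Spic_WT, RPM_TAM_CreERT2 and RPM_TAM_WT. They shared 1 estimate of the spread with 7 residual degrees of freedom, against 3 with the Spic libraries alone. Genes under 0.05 after Benjamini-Hochberg adjustment were called. The design allowed for raw counts, which the table does not hold, so its limma branch was used. Alternatives were no filter, a stricter filter (10), library weights, a minimum log2 change of 1 in size, pseudocounts of 0.1 and 5, a replicate block, a fit of the compared groups, other scalings, edgeR 4.0.16 and DESeq2 1.42.0 on recovered reads, and leaving out each library. A correction for transcript length was added after the data were seen. The fit was tested on simulated counts that gave every library the same dispersion, unlike the Spic libraries. That simulation cannot show how the fit behaves where the knockout libraries stand apart. Where a group had no reads, the fold is a lower bound, taken against 3 reads in each library (a mean level of 1.53 in Spic_KO and 0.927 in Spic_WT). Groups with 1 to 3 reads carry a 95% counting interval. Intervals and floors cover counting error only.

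The comparison and the 36 gene lists were chosen with earlier results of these data known. Named genes were Spic, the 15 falls and 15 rises that ranked highest by the smaller of the changes of the single knockout libraries (called, not overlapping, with a mean from 20 upward in the group that was higher), up to 4 called members per list by p or 2 by mean where none was called, and 5 predicted or olfactory genes. Predicted, ribosomal, mitochondrial, receptor segment and Y-linked genes were not ranked. Other members of the lists, S100a8, the Y-linked genes, the other St6galnac2 identifier and the genes of the vavCre comparison were chosen for their role after their values were seen. Results for some items are not reported here.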

Additional observations from a re-analysis of the deposited data

How the results depend on the processing

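The count of called genes (658) ran from 261 to 1972 with a library left out. It was 414 with library weights, 997 and 1118 by edgeR with TMM and RLE factors and 1701 by DESeq2, and the cause of these shifts was not tested. It stayed within 1.5 times of 658 with no filter (483), the stricter filter (784), pseudocounts of 0.1 (699) and 5 (580), the compared groups only (591), a minimum change (645), both other scalings (655 and 644) and length correction (654). The replicate block gave 510 calls with 1 residual degree of freedom, and under it 21 named genes lost their call, among them Btla (adjusted p = 0.0882), C5ar1 (0.0711) and Ifi44 (0.141). Whether the numbers pair the libraries is not known. The difference of replicates 1 and 2 in Spic_KO correlated at 0.013 over genes with that in Spic_WT. This value cannot decide it, since Spic_KO replicate 2 stood apart from the other libraries. The Spic change ran from -1.36 to -0.95 with a library left out. Its adjusted p was 0.0562 without a filter (-1.16), 0.0517 with library weights (-1.16) and 0.0505 with length corrected (-1.01). The share of Spic_KO calls shared with vavCre was 16.2% with a minimum change of 1 log2 unit and 9.08 to 29.2% with a library left out. As genes with a read, olfactory genes made up 1.35% of Spic_KO, against 0.128% of summed levels. In promoters of genes called lower, the longer motif was in 11.5%, against 94.0% for GGAA. The sign turned for 3 genes without a call: Cd83 (-0.15 to 1.34) and Cox5a (-0.34 to 0.06) with a library left out, and Cox4i1 (0.03) and Cox5a (0.06) with length corrected. With 2 knockout libraries an exact permutation test of a single value, one-sided, cannot go under p = 0.1. At 2.85 M reads, a gene without reads in Spic_KO replicate 1 may still lie under a level of 1.502, which is 3 reads.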

Other observations

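Of 401 genes called lower in Spic_KO and tested in both, 25 were called higher in vavCre. Over all genes tested in both, 3.21% were called higher in vavCre. The functions of the 25 genes differ. Cbr2, a carbonyl reductase, changed by -5.29 in Spic_KO and by 3.40 in vavCre (limma adjusted p = 9.8e-06 and 4.2e-09). Nxpe5 changed by -5.87 and 1.36, and the interferon-induced membrane protein gene Ifitm3 by -2.20 and 2.03. The complement regulator Cd55 changed by -3.65 and 1.82, and its Spic_KO call was lost without RPM_d7_Spic_KO replicate 2 (0.0557). These genes were picked for their opposite signs after the values were seen. Whether the effects differ was not tested.

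In Spic_KO replicate 2, 236 of 2234 genes without a read in any Spic_WT library had a level of at least 20. In replicate 1 the number was 20, and 4 genes were in common.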
